A study of Mus musculus with 29 samples.

Results

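Messenger RNA levels of endoderm freshly made from mouse embryonic stem cells (Diff, 3 arrays) were set against those of XEN cells (XEN, 3 arrays), an established line of extraembryonic endoderm. The 6 arrays were chosen by their titles from 29 single-colour Agilent arrays in 9 groups. Diff cells carry the double reporter line HRHnG, which the labels give as male, and had spent 7 to 8 days with Activin, CHIRON (which switches on Wnt signalling) and LIF. The labels describe them as stem cells that had been differentiated to primitive endoderm. XEN cells are of a line given only as Xen, also labelled male, were kept in their standard medium and served the study as controls. The labels name no deletion in either group. The study followed naive stem cells (ESC, in the inhibitor pair 2i with LIF) through Diff into passaged endoderm at passage 7 to 10 (Mid) and 14 to 15 (Late), all of the line HRHnG and 3 arrays each. Levels of these groups are given beside the comparison where they help to read it.

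Line, medium and time in culture all differ between Diff and XEN, and their parts cannot be told apart. The labels do not say which Diff array came from day 7 and which from day 8. Nor do they say whether the 3 arrays of a group came from separate cultures. P-values therefore measure only the spread between arrays of a group, estimated in a single fit over all 29 arrays in 9 groups. In such bulk RNA, fewer cells of a type and less RNA per cell cannot be told apart either.

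Primitive endoderm is the layer that forms on the inner cell mass of the blastocyst, under FGF signalling and the transcription factor Gata6. It gives visceral endoderm, a polarised epithelium that takes up nutrients, secretes carrier proteins and patterns the epiblast, and parietal endoderm, migratory cells that lay down the basement membrane around the yolk sac. XEN cells are derived from this layer and are known for a largely parietal character, while naive pluripotency is held by a network around Oct4 (gene Pou5f1), Nanog, Esrrb and Sox2.

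Levels are log2 signals relative to the 75th percentile of each array, so that percentile is 0. Each difference is Diff minus XEN on that scale (n = 3 and 3). It is given with its standard error (SE), which uses the spread pooled over all 29 arrays. On the 6 arrays 52.5% to 64.1% of probes exceeded background clearly by the scanner's mark (well above background), and 0 were saturated. Arrays correlated at 0.964 to 0.982 within Diff, at 0.976 to 0.977 within XEN and at 0.868 to 0.896 between the groups, across genes, which are not independent replicates. A gene was called at an adjusted p under 0.05 (limma, Benjamini-Hochberg adjustment over 16333 genes). Where no array of a group had the probe well above background, the fold is a lower bound, set against the lowest signal that counted as well above background, and is written as "at least".

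The label of the XEN line was checked first. Ddx3y and Eif2s3y, housekeeping genes of the Y chromosome, stood well above background on 3 of 3 Diff arrays and on 0 of 3 XEN arrays. Diff exceeded XEN at least 23.8-fold for Ddx3y and at least 75.1-fold for Eif2s3y. Xist, the RNA of the inactive X chromosome, was well above background on 0 of the 6 arrays. The XEN arrays thus go against their male label, and a lost Y chromosome and a female origin cannot be told apart here. Ddx3y was also lower on Diff 3 (-2.51) than on Diff 1 (0.86) and Diff 2 (0.90).

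Of all genes 41.5% were called (6783), with 18.4% higher in Diff (3007) and 23.1% lower (3776), and the median difference was -0.06. Called differences larger than 1 in size numbered 4577, of which 2365 were higher and 2212 lower. Higher genes made up 44.3% of those called, a balance that rests on the scaling: when arrays were centred on their medians it was 34.2%, and the median difference -0.34. Arrays of the groups did not overlap for 7357 genes, 45% of those tested, with Diff above for 19.9% and XEN above for 25.2%. In a fit to the first scan day, with 2 arrays of each group, Gata4, Lamc1, Hspg2, Loxl2, Lefty2, Mycn, Sp8, Acvr1, Kit, Lifr and Peg10, among other genes described here, lost their calls. The size of a difference depends on the background correction where a gene is dim in one group: with another correction (normexp) it was 6.10 in place of 9.34 for Pou5f1, 2.88 in place of 4.84 for Otx2, 3.68 in place of 6.67 for Lefty1 and 10.01 in place of 11.87 for Dppa5a.

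**Figure D1:**
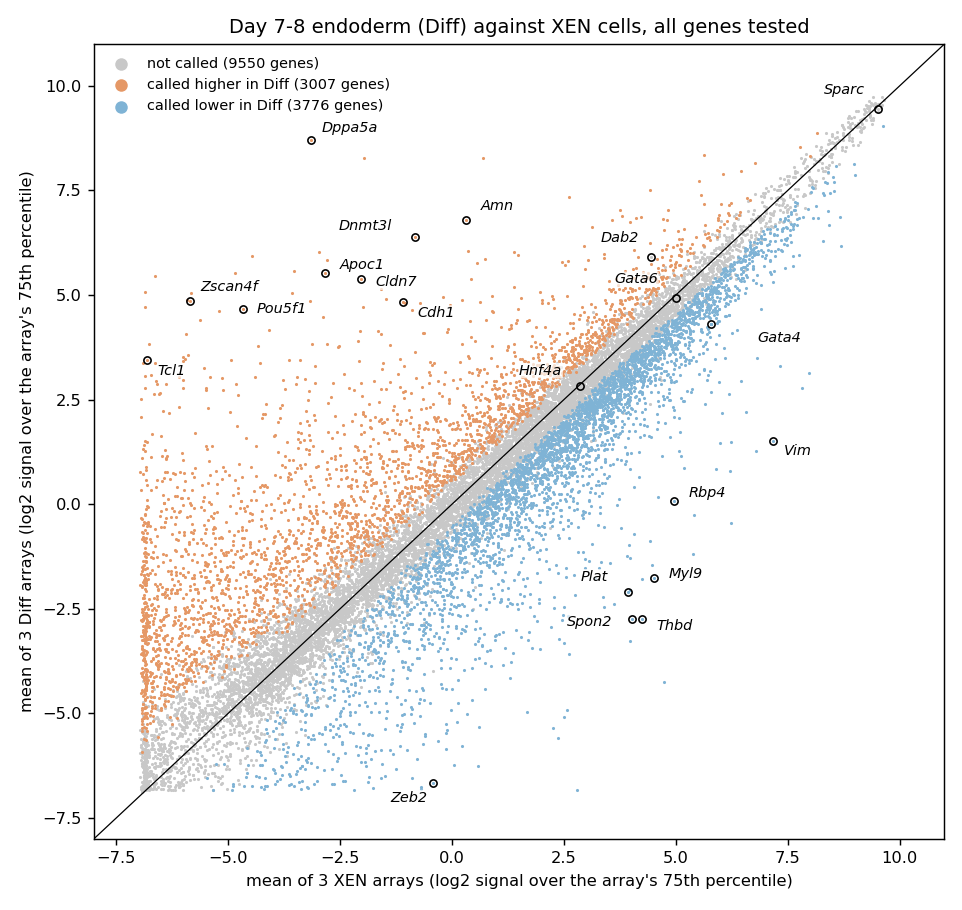
Mean level of each of 16333 genes in XEN (horizontal axis) and Diff (vertical axis), as log2 signal relative to the 75th percentile of the array, 3 arrays each. Colours mark the 3007 genes called higher and the 3776 called lower in Diff, and named genes such as Dppa5a (top left) and Thbd (lower right) lie far from the diagonal of equal levels, while Gata6 lies on it.

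Genes were also read in 49 lists, which overlap: of 775 genes listed, 82 were in more than 1 list. Counts of different lists are therefore not separate lines of evidence. Of 20 transcription factors of endoderm tested, 4 were called higher in Diff and 3 lower, and the median difference was -0.04. Over all genes 41.5% were called, 18.4% higher and 23.1% lower. The counts of each list here and below are to be read beside these shares. Gata6, which sets primitive endoderm identity, read 5.09, 4.56 and 5.16 in Diff and 5.18, 4.39 and 5.40 in XEN. All 3 Diff values lay within the XEN range, and the difference was -0.06 with a 95% interval from -1.31 to 1.2. Hnf4a, a nuclear receptor of visceral endoderm and liver, gave -0.03 (interval -1.25 to 1.2). The intervals of Foxq1 (-1.12 to 1.18) and Gata5 (-0.36 to 0.88) also include 0. Foxa2, a pioneer factor of endoderm, had all 3 Diff arrays (4.14 to 4.68) below all 3 XEN arrays (4.79 to 5.56), but its difference of -0.84 was not called (interval -2.46 to 0.79) except with normexp (adjusted p = 0.00998). An interval that includes 0 does not show equal levels, and several of these allow a difference of more than 1.

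Among the factors called, Gata4, a partner of Gata6 in primitive endoderm, read 4.79, 3.98 and 4.18 in Diff and 6.00, 5.31 and 6.02 in XEN (difference -1.46 ± 0.41, adjusted p = 0.0056). Every Diff array was below every XEN array. Sox17, an endoderm factor of both lineages, differed by -1.32 ± 0.44 (adjusted p = 0.02), and its call was lost without Diff 2, without Diff 3 (adjusted p = 0.082) or without XEN 3. Otx2, a factor of anterior visceral endoderm and of the epiblast leaving the naive state, was higher. It read 0.53, 1.98 and 2.43 in Diff and -4.56, -1.72 and -3.30 in XEN (difference 4.84 ± 0.81, adjusted p = 3.9e-05), with no overlap. Eomes, a T-box factor that acts in visceral endoderm and in the primitive streak, read 1.24, 0.70 and 0.90 against -0.81, -0.87 and -1.96 (difference 2.16 ± 0.36). The count of 4 higher factors went to 2 without Diff 3, and that of 3 lower factors to 1 without Diff 2. With normexp 2 were higher and 5 lower. In the authors' deposited matrix, which gave values for 13093 of the 16333 genes, 0 were higher and 2 lower. Members absent from that matrix, here and below, could not be called in it.

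The primitive endoderm list, chosen for genes of the early layer, was as evenly divided, with a median of -0.06. Of 20 genes, 5 were higher (25%) and 4 lower (20%), against 18.4% and 23.1% over all genes. The higher ones were led by the uptake receptor genes Amn, Cubn and Lrp2, given below, and by Col4a2, a chain of basement membrane collagen (1.84 ± 0.54, whose adjusted p was 0.0535 without Diff 1). Cited1, a transcriptional cofactor, was lower (-2.50 ± 0.68), as was Lamc1, a laminin chain (-1.13 ± 0.29). Dab2, an endocytic adaptor by which the layer is often identified, read 5.95, 6.01 and 5.77 against 4.63, 3.84 and 4.85. The groups did not overlap, but the difference of 1.47 was not called (adjusted p = 0.24). It was called higher with the Diff and XEN arrays fitted alone (adjusted p = 0.0127), with slide as a block (0.00119), with normexp (0.000113) and in the deposited matrix (1.32e-06). Pdgfra, the receptor that marks the layer, overlapped (-0.58, interval -1.82 to 0.65). The 5 higher calls went to 3 without Diff 1 or without XEN 2.

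Of 17 parietal endoderm genes tested, 8 were lower in Diff, 1 was higher and 8 were not called, with a median of -0.95 (-0.56 without Diff 2) against -0.06 over all genes. Within slides, each of which held 1 array of both groups, the median was -0.0031, -0.99 and -1.65, so the first slide did not show it. Thbd, thrombomodulin, a surface receptor for thrombin and a standard parietal marker, read -0.98, -4.06 and -3.20 in Diff and 4.83, 3.35 and 4.53 in XEN. The 3 Diff arrays lay more than 4 units below the 3 XEN arrays (difference -6.98 ± 0.77, adjusted p = 1.3e-07). Plat, tissue plasminogen activator, which parietal cells secrete, read -0.75, -2.99 and -2.54 against 4.90, 3.33 and 3.56 (difference -6.02 ± 0.58). Vim, the intermediate filament vimentin, read 0.93, 1.31 and 2.29 against 7.91, 6.60 and 7.00 (difference -5.66 ± 0.59). Fst, the Activin-binding protein follistatin, differed by -5.02 ± 0.66, and Stra6, the membrane receptor for retinol-binding protein, by -4.76 ± 0.76. Krt19, a keratin, differed by -3.85 ± 0.81. Sparc, a matrix glycoprotein, did not follow on the probe used. It read 9.94, 9.11 and 9.30 against 9.71, 9.1 and 9.75 (-0.07, interval -0.75 to 0.61), although a second probe of Sparc was called at -1.45. Pth1r, the receptor by which parietal differentiation is induced, overlapped at -0.95 (interval -2.02 to 0.11).

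**Figure D2:**
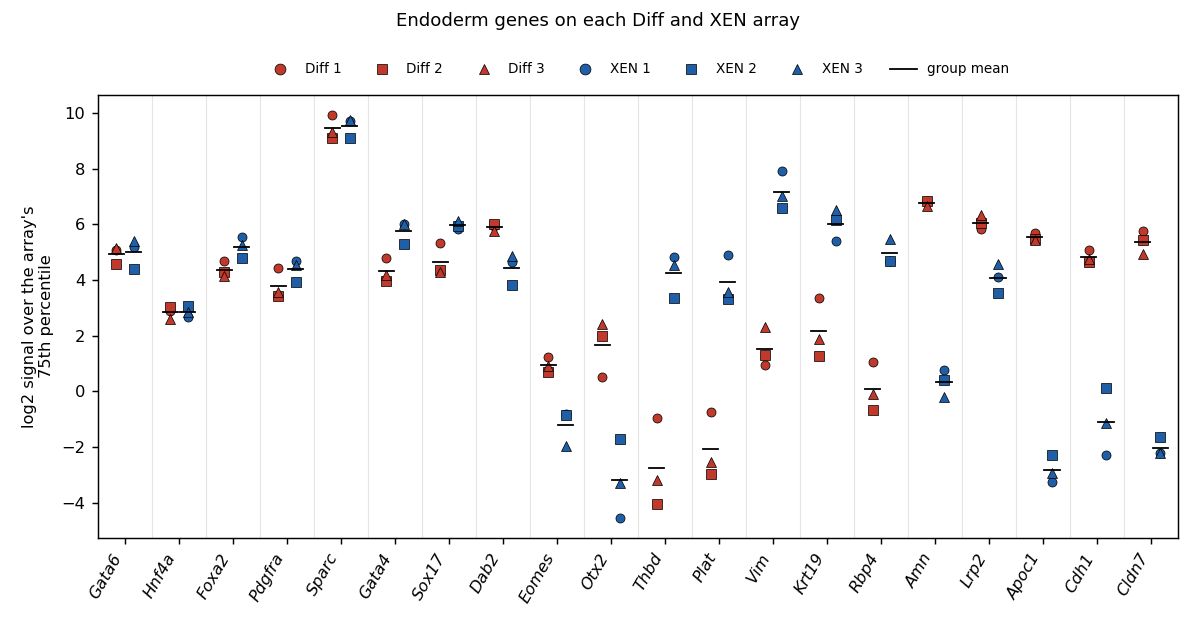
Levels of 20 endoderm genes on each of the 3 Diff and 3 XEN arrays, as log2 signal relative to the 75th percentile of the array, 1 point per array. Points of both groups coincide for Gata6, Hnf4a and Sparc, while Thbd, Plat and Vim are low and Amn and Cldn7 high on every Diff array.

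Visceral endoderm genes were mostly higher in Diff. Of 23 tested, 13 were higher and 2 lower, with a median of 1.59 and within-slide medians of 1.61, 0.80 and 1.41. With normexp 9 were higher and 3 lower (median 0.33), and in the deposited matrix 8 and 3 (0.38). The defining genes of visceral endoderm were divided. Amn and Apoa1 (2.09) were called higher and Afp lower, while Ttr, Hnf4a and Ihh (0.32) were not called. Apoa1 lost its call with normexp and in the deposited matrix. Amn, the membrane anchor of the cubilin receptor, read 6.83, 6.85 and 6.67 in Diff and 0.76, 0.40 and -0.21 in XEN (difference 6.47 ± 0.40, adjusted p = 1.3e-11). The Diff arrays lay above the means of 5.28 in Mid and 5.67 in Late. Lrp2, the scavenger receptor megalin, read 5.84, 6.03 and 6.32 against 4.11, 3.52 and 4.56 (difference 2.00 ± 0.48). Cubn, cubilin itself, differed by 2.21 ± 0.74, and its adjusted p was 0.0652 without XEN 2. Pdzk1, a scaffold for membrane transporters at the apical surface, differed by 4.95 ± 0.40. Of 16 genes of uptake and endocytosis 6 were higher (37.5%) and 3 lower (18.75%), against 18.4% and 23.1% over all genes.

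Secreted carriers moved in both directions. Apoc1, an apolipoprotein, read 5.70, 5.47 and 5.42 in Diff and -3.27, -2.31 and -2.94 in XEN, with a gap of more than 7 units (difference 8.37 ± 0.41, adjusted p = 1.5e-13). Apom, which carries sphingosine-1-phosphate, differed by 3.58 ± 0.34, and Abcg1, a sterol exporter, was at least 74.2-fold higher. Rbp4, the plasma carrier of retinol, ran the other way: it read 1.04, -0.68 and -0.12 in Diff and 4.70, 4.69 and 5.48 in XEN (difference -4.87 ± 0.50). Pltp, phospholipid transfer protein, differed by -3.84 ± 0.42. Ttr, transthyretin, which travels with Rbp4, read 2.36, 1.16 and 1.69 against 2.90, 2.43 and 4.09, and its -1.41 was not called. Afp, alpha-fetoprotein, was called lower (-2.07 ± 0.76), but not without Diff 2 (-1.59, adjusted p = 0.15), without Diff 3, without XEN 1 or without XEN 2. Of 23 lipid transport genes 11 were higher and 2 lower with a median of 0.84. With normexp 7 were higher and 3 lower (median 0.13), with median centring 9 and 5 (0.56), and in the deposited matrix 8 and 2 (0.10). The 2 lower calls went to 4 without XEN 1. Of 17 fetal liver secreted proteins 7 were higher, among them the fibrinogen chain Fgb (4.66 ± 0.90), and 1 lower.

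In retinoid handling, 4 of 15 genes were higher (26.7%) and 3 lower (20%), against 18.4% and 23.1% over all genes. Cyp26b1, which degrades retinoic acid, differed by 3.82 ± 0.57, whereas Rarb, a retinoic acid receptor that is itself induced by retinoic acid, differed by -4.31 ± 0.49. Rarg, another receptor of the family, differed by 3.04 ± 0.47.

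Anterior visceral endoderm and organiser genes had 10 of 15 higher, 0 lower and a median of 1.76. Lefty1, a secreted Nodal antagonist, read -1.17, 3.02 and 3.74 in Diff and -4.15, -4.60 and -5.69 in XEN (difference 6.67 ± 1.1, adjusted p = 3.3e-05). Diff 1 stood about 4 units below the other Diff arrays and still above XEN. Hesx1, a homeobox gene of anterior tissue, read 0.84, 1.22 and 1.74 against -3.73, -1.93 and -3.07 (difference 4.18 ± 0.65). Cer1, a secreted antagonist of Nodal, BMP and Wnt, was well above background on 1 Diff array and 0 XEN arrays, at least 1.22-fold higher, and its call was lost without Diff 3, XEN 1 or XEN 3. Gsc, a factor of the organiser, was called higher but well above background on 1 Diff array and 0 XEN arrays, too dim for a fold, and the call was lost without Diff 3 (0.94, adjusted p = 0.107). Hhex, another anterior gene, overlapped (-0.67, interval -1.51 to 0.17). Many of the visceral and anterior genes are dim on 1 side: with normexp 9 visceral genes were higher (median 0.33) and 5 anterior ones (median 0.23), and in the authors' deposited matrix 8 and 5.

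Genes of definitive endoderm, the gut-forming layer of the embryo proper, went both ways. Of 19 tested, 7 were higher (36.8%) and 5 lower (26.3%), against 18.4% and 23.1% over all genes. With normexp 4 were higher and 7 lower. Cxcr4, a chemokine receptor of that layer, was at least 2.96-fold higher in Diff, a call lost with normexp. Trh, the precursor of thyrotropin-releasing hormone, read 1.90, 4.62 and 5.99 against -3.58, -4.01 and -4.71 (difference 8.27 ± 0.96). Nepn, the matrix protein nephrocan, read -4.25, -6.50 and -4.49 against 3.86, 0.88 and 2.75 (difference -7.58 ± 0.67), and was well above background on 1 of 3 Diff arrays. The sign of this list's median followed the scaling (0.05, or -0.23 with median centring), and the 5 lower calls went to 3 without Diff 2 or without Diff 3.

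Stem cell genes were much higher in Diff. All 21 naive pluripotency genes passed the filter, 17 were higher in Diff and 0 lower, and the median was 4.73, with within-slide medians of 3.36, 5.58 and 6.12. Leaving out any 1 array left 16 or 17 of them called. Dppa5a, an RNA-binding protein of naive cells, read 8.84, 8.53 and 8.78 in Diff and -3.42, -3.35 and -2.69 in XEN. This was the largest difference among named genes measured well above background on all 6 arrays (11.87 ± 0.40, adjusted p = 2.9e-16). Pou5f1 (Oct4) read 4.06, 4.97 and 4.94 against -4.91, -4.10 and -5.03, with 1 of 3 XEN arrays well above background (difference 9.34 ± 0.43). Nr0b1, a nuclear receptor of the naive network, read 0.93, 4.02 and 4.31 in Diff and was at least 241-fold higher. Tcl1, an activator of Akt, was at least 308-fold higher (2.70, 3.93 and 3.69 in Diff), and Fgf4, the FGF made by epiblast, at least 128-fold. Esrrb, an orphan nuclear receptor, read 2.30, 3.86 and 5.31 against -3.54, -2.52 and -3.31 (difference 6.95 ± 0.57).

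The core factors Sox2 and Nanog were dimmer. Sox2 read -1.35, 0.89 and 1.82 in Diff and was at least 38.8-fold higher. Nanog read -2.40, -0.29 and 1.2 and was at least 18.1-fold higher by 1 probe, while a second probe of Nanog gave -1.0 (adjusted p = 0.06). Diff 1 was the lowest Diff array for Pou5f1, Nr0b1, Tcl1, Fgf4, Esrrb, Sox2 and Nanog. Klf4, a naive factor also found in other epithelia, overlapped between the groups (0.54, interval -0.04 to 1.13). Summed over the list on the linear scale, the level relative to the 75th percentile was 698 to 901 in Diff, 65.9 to 97.1 in XEN and 1244 to 1370 in ESC. The share of undifferentiated cells in Diff was not measured here.

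**Figure D3:**
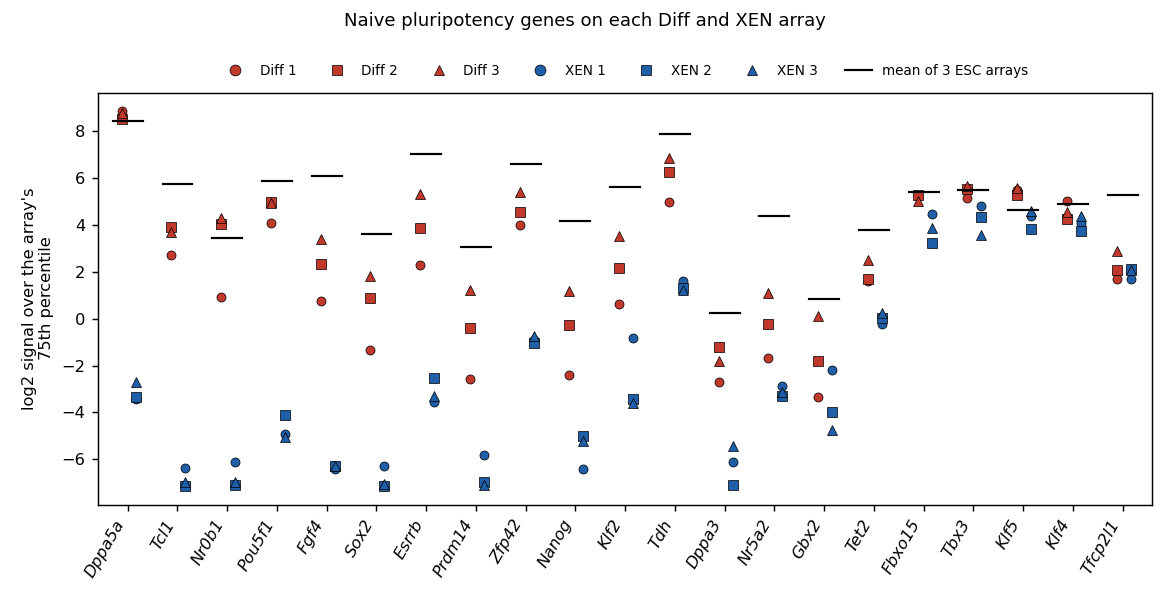
Levels of the 21 naive pluripotency genes on each Diff and XEN array, as log2 signal relative to the 75th percentile of the array, with the ESC mean as a line per gene. The Diff points lie near the ESC line for Dppa5a and below it for Nanog and Sox2, and the XEN points lie lower still for Nanog and Sox2 and far below both for Dppa5a.

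Genes shared by pluripotent states were split. Of 16, 10 were higher and 3 lower (median 2.38), with 6 higher in the deposited matrix. Dnmt3l, a cofactor of the new DNA methyltransferases, read 6.47, 6.47 and 6.19 in Diff and -0.28, -0.37 and -1.86 in XEN (difference 7.21 ± 0.60). Dppa2 and Dppa4, a pair of chromatin proteins that act together, differed by 6.37 ± 0.76 and 6.15 ± 0.33. Other probes of Dppa4 gave 2.25 and 6.945, both called, so the size depends on the probe. The RNA-binding proteins Lin28a and Lin28b, which block the let-7 microRNAs, went the other way: Lin28a read 4.73, 4.38 and 4.44 against 6.46, 6.03 and 6.05 (difference -1.66 ± 0.29), and Lin28b differed by -3.56 ± 0.73. Mycn, a growth-promoting factor, differed by -1.49 ± 0.22. Sall4, expressed in stem cells and in extraembryonic endoderm, overlapped (-0.17, interval -0.77 to 0.42). Of 19 primed epiblast genes 10 were higher and 3 lower. Tcf15, a factor of cells leaving the naive state, differed by 5.05 ± 0.57, and Fgf5, the usual marker of primed cells, was seen on 2 of 3 Diff arrays and at least 3.47-fold higher. With normexp only 5 of these primed genes were higher.

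Genes of cleavage embryos and of the germline were higher in Diff for 13 of 16, with 0 lower and a median of 5.57. Zscan4f, of a family that comes on at zygotic genome activation and in rare stem cells, read 3.20, 5.83 and 5.51 in Diff and was at least 815-fold higher. Zscan4a was at least 474-fold higher, and Zscan4c differed by 6.61 ± 0.96. These copies are near-identical in sequence, so their probes may read one another. Mean ESC levels of Zscan4a and Zscan4f were -2.37 and -1.57, below all 3 Diff arrays. Sycp3, a protein of the meiotic chromosome axis, read 0.58, 0.76 and 0.99 in Diff and was at least 48.6-fold higher. The Rhox homeobox cluster on the X chromosome ran both ways, with 2 of 9 higher and 4 lower. Rhox6 read -0.14, -1.23 and -2.21 against 5.56, 5.39 and 5.19 (difference -6.57 ± 0.72), and Rhox9 differed by -5.30 ± 0.67. Rhox13, a member expressed in germ cells, was at least 31.4-fold higher.

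Junction genes of epithelia were often higher in Diff. Of 25 epithelial junction and keratin genes 12 were higher and 4 lower, with a median of 0.89 and within-slide medians of 1.90, 0.21 and 0.55. Promoter sequence is shown for 3 of the higher genes and for Krt8, a lower one. The E-box CACCTG is an element through which Zeb and Snail factors are known to repress junction genes. Of these factors Zeb1 and Zeb2 were lower in Diff, Snai1 overlapped and Snai2 was higher, as given below. Whether any of them acts on the genes shown was not tested. The windows run from 250 bases before to 50 bases after a start site, 5′ to 3′ on the gene's strand, as given by RefSeq for build GRCm38.p6. Capitals mark CACCTG or its reverse complement CAGGTG. The regions are chr11:69965171-69965470 (+ strand) for Cldn7, chr17:87635729-87636028 (+ strand) for Epcam, chr5:134985964-134986263 (+ strand) for Cldn3 and chr15:102004293-102004592 (- strand) for Krt8.
Cldn7: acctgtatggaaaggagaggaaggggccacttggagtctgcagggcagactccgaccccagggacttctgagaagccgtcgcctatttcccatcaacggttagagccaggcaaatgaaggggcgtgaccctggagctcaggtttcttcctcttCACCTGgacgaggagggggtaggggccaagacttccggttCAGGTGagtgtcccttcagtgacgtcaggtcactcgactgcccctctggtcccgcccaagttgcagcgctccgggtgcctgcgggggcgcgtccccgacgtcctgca
Epcam: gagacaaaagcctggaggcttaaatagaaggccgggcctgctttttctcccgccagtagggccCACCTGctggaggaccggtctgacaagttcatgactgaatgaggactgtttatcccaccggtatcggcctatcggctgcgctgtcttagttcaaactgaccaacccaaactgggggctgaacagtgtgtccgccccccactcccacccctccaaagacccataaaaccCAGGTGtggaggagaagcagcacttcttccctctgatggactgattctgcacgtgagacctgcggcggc
Cldn3: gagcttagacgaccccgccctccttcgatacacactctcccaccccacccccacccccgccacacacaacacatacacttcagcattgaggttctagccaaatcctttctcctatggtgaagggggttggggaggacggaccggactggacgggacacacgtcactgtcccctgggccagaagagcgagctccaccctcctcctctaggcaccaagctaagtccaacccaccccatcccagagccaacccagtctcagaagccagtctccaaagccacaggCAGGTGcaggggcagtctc
Krt8: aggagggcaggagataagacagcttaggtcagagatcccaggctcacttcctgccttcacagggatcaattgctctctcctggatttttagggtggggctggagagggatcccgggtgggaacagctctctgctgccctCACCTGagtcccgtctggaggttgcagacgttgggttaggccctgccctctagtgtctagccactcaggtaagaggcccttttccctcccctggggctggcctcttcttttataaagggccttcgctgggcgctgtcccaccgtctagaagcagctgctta
The Cldn7 and Epcam windows shown hold 2 matches each, and those of Cldn3 and Krt8 hold 1. Cldn7 has a second window, chr11:69964529-69964828, which holds 0 matches, and the one with matches is shown. Of 17 genes of the list with a window 14 hold the motif (82.4%), against 22.6% of 27025 genes with a window. They are 8 of 9 genes higher in Diff, 2 of 2 lower and 4 of 6 not called. A match is a description of letters, not of binding. The motif was chosen after the values were seen.

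Cldn7, a tight junction claudin, read 5.77, 5.43 and 4.95 in Diff and -2.22, -1.66 and -2.23 in XEN, a gap of more than 6 units (difference 7.42 ± 0.60, adjusted p = 1.2e-09). Cdh1, the adherens junction protein E-cadherin, read 5.08, 4.64 and 4.75 against -2.29, 0.13 and -1.15 (difference 5.92 ± 0.57). Tjp3, a scaffold of tight junctions, differed by 4.23 ± 0.44, and Epcam, an epithelial adhesion molecule, by 2.65 ± 0.30. Cldn3 was at least 9.71-fold higher, a call lost with normexp. Of the 4 keratins of the list, Krt8, Krt18 and Krt19 were lower. Krt7, the fourth, was called higher, at least 1.81-fold, with 2 Diff and 0 XEN arrays well above background. Krt18 read 7.48, 6.72 and 6.38 against 8.41, 8.79 and 8.79 (difference -1.80 ± 0.49). Krt8, its partner, differed by -2.19 ± 0.75, and its adjusted p rose to 0.077 when 1 array was left out (Diff 2, Diff 3, XEN 1 and XEN 2 each ended the call). Pkp2, of desmosomes, differed by -1.64 ± 0.34. With normexp 8 junction genes were higher, and in the deposited matrix 6.

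Of 17 mesenchymal genes 7 were lower in Diff and 4 higher (median -0.89). Zeb2, a repressor of E-cadherin, was well above background on 3 of 3 XEN arrays (-0.49, -0.24 and -0.52) and 0 of 3 Diff arrays, at least 17.7-fold lower in Diff. Zeb1 read -5.18, -2.96 and -1.35 against 1.68, 1.13 and 1.78 (difference -4.70 ± 0.60). Snai1, of the Snail family, overlapped (-0.37), while its relative Snai2 was at least 1.8-fold higher in Diff and Twist1 at least 4.89-fold, both dim. With normexp none of the 4 higher genes kept a call.

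Targets of YAP and contractile genes were lower for 11 of 16, with 1 higher and a median of -1.50, and slides gave -1.54, -1.73 and -1.43. Myl9, a regulatory light chain of myosin, read -0.81, -2.27 and -2.22 against 3.38, 4.38 and 5.76 (difference -6.28 ± 0.77). Cnn1, calponin of smooth muscle, differed by -5.24 ± 0.68. Ccn2, the matricellular YAP target also known as CTGF, read 4.59, 2.29 and 2.53 against 8.26, 7.87 and 7.80 (difference -4.84 ± 0.66), and Ankrd1, another YAP target, differed by -4.93 ± 0.82. Outside this list, 3 muscle genes of the same kind were among the largest differences: Myh7, a cardiac myosin heavy chain (-6.03 ± 0.31), Mybpc3, cardiac myosin-binding protein C (-6.01 ± 0.64), and Myocd, the coactivator myocardin, at least 24.2-fold lower. Integrins and adhesion genes had 8 of 17 lower and 3 higher, among the lower Itgb5 (-2.87 ± 0.29) and Itga7 (-2.53 ± 0.31), a laminin receptor chain. In the deposited matrix 4 were lower and 3 higher, and the median turned from -0.53 to 0.05.

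**Figure D4:**
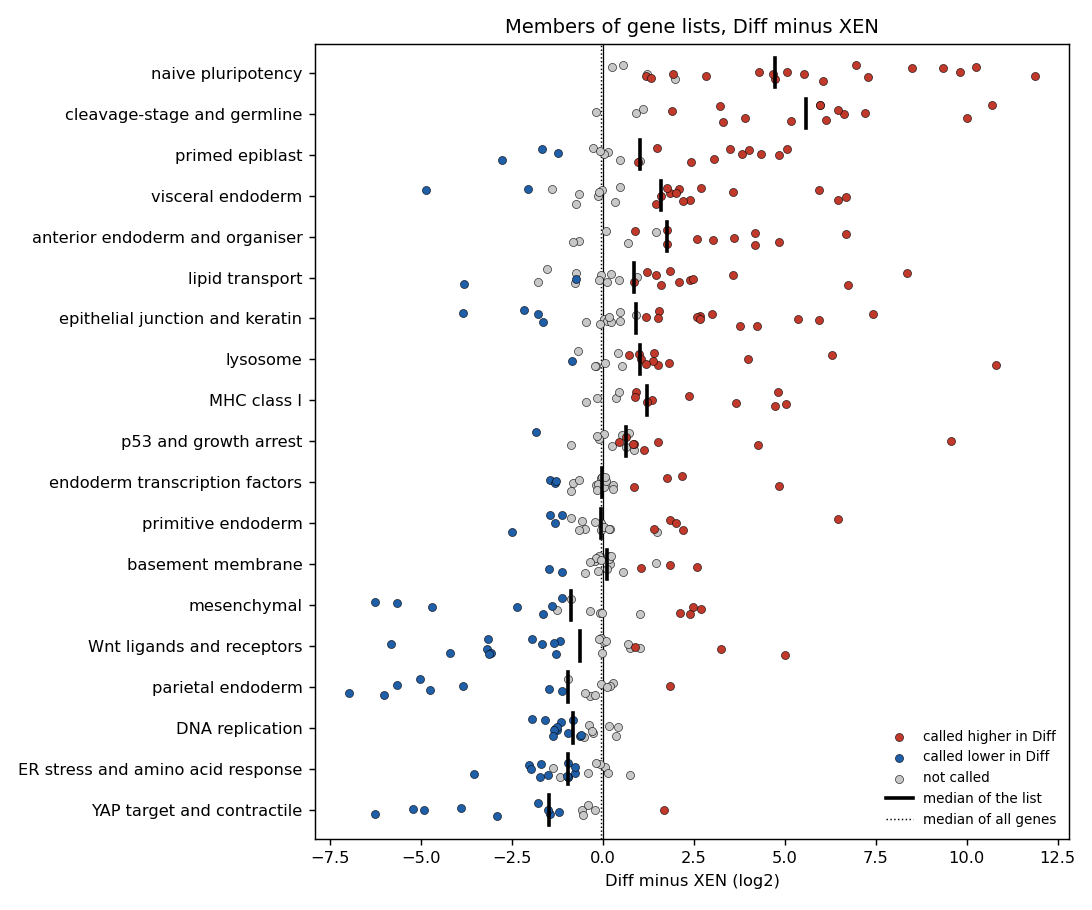
Differences (Diff minus XEN, log2) of the tested members of 19 gene lists, 1 point per gene, with the median of each list as a bar and the median of all 16333 genes as a dotted line. Naive pluripotency and cleavage-stage lists lie highest, with medians of 4.73 and 5.57, the YAP target list lowest at -1.50, and endoderm transcription factors spread around the dotted line.

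Basement membrane genes, the matrix that parietal endoderm builds, were called higher for 3 of 19 (15.8%) and lower for 2 (10.5%). Both shares were below those over all genes, 18.4% and 23.1%. Hspg2, perlecan, read 5.61, 5.74 and 5.58 against 4.75, 4.51 and 4.56 (difference 1.04 ± 0.20), and Nid2, nidogen 2, read 4.58, 4.10 and 4.23 against 5.91, 5.59 and 5.87 (-1.49 ± 0.26). Without Diff 1 only 1 of the 3 higher calls was left. Of the enzymes that fold and cross-link collagen 7 of 17 were lower and 0 higher (median -0.65, but -0.41 without XEN 3). Fkbp10, a collagen chaperone of the endoplasmic reticulum, read 0.77, 0.72 and 1.01 against 5.58, 5.91 and 6.18 (-5.06 ± 0.32). Loxl2, a lysyl oxidase, read 4.63, 0.59 and 1.37 against 6.28, 6.24 and 7.17 (-4.37 ± 0.75). Diff 1 was nearest to XEN for it.

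Among Nodal and Activin genes 9 of 20 were higher and 3 lower. The ligand Nodal read 0.80, 3.40 and 4.04 in Diff and -1.71, -1.25 and -1.82 in XEN (4.34 ± 0.49), and its feedback inhibitor Lefty2 read -0.46, 3.63 and 4.51 against -3.25, -2.08 and -2.77 (5.26 ± 0.74). Diff 1 was again the lowest of Diff. Cfc1, the co-receptor Cryptic, read -0.45, -2.16 and -1.94 against 4.09, 1.67 and 3.15 (-4.49 ± 0.54).

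BMP components had 4 of 17 higher (23.5%) and 6 lower (35.3%), against 18.4% and 23.1% over all genes. Bmp4, a ligand of the epiblast and extraembryonic ectoderm, read -1.36, 0.28 and 2.01 against -4.42, -4.05 and -4.79 (4.73 ± 0.67), and Bmp8b differed by 4.62 ± 0.38. Smad6, an intracellular inhibitor induced by BMP, read -4.67, -5.69 and -4.40 against -0.61, 0.49 and 0.02 (-4.89 ± 0.41), and Id3, a direct target, differed by -1.73 ± 0.43. Acvr1, a receptor, differed by -2.04 ± 0.33.

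The Diff medium held CHIRON, an activator of Wnt signalling, so Wnt targets were set apart from ligands and receptors. Of 17 targets 5 were higher (29.4%) and 4 lower (23.5%), against 18.4% and 23.1% over all genes. Axin2, a general feedback target, was at least 3.72-fold higher, Nkd1, another feedback inhibitor, at least 4.92-fold, and Lef1 differed by 3.49 ± 0.89. Sp8, a zinc finger factor, read 1.32, -2.96 and -2.18 against 4.17, 3.31 and 4.44 (-5.25 ± 0.91). A second probe of Sp8 was also called, at -2.61. The calls of Axin2, Nkd1 and Lef1 were lost with normexp, under which 3 targets were higher and 2 lower. Of 22 ligands and receptors 11 were lower and 3 higher. The receptor Fzd2 read -2.30, -2.18 and -2.87 against 2.92, 3.81 and 3.42 (-5.83 ± 0.27, adjusted p = 6.5e-14), and Fzd3 differed by -4.22 ± 0.38. Fzd10 was at least 7.73-fold higher. Among ligands Wnt4 (-3.19 ± 0.49) and Wnt7b (-3.16 ± 0.89) were lower and Wnt6 higher (3.23 ± 0.65). Without Diff 1 the 3 higher calls became 5.

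Of 16 FGF ligands and receptors 5 were higher (31.25%) and 2 lower (12.5%), against 18.4% and 23.1% over all genes. The ligand Fgf10 differed by 3.65 ± 0.71, and the receptor Fgfr3 was lower (1.2, 2.56 and 1.64 against 4.61, 4.70 and 4.46, -2.79 ± 0.49). Targets and feedback genes of the ERK kinase pathway had 5 of 17 higher and 5 lower (29.4% each). Egr1, an immediate early gene, read 3.76, -0.18 and -0.35 against -2.81, -1.39 and -1.55 (2.99 ± 0.74, or 1.65 without Diff 1). Myc, a growth-promoting factor, read -3.52, -2.08 and -0.86 against 2.57, 2.30 and 0.34 (-3.89 ± 0.71). The higher count went to 3 without Diff 3 or without XEN 3 and the lower count to 3 without XEN 2. Diff medium also held LIF. Its receptor Lifr was lower (-1.69 ± 0.39), as was the kinase Jak2 (-1.60 ± 0.18), while the related cytokine receptors Osmr and Il6ra were higher (4.15 ± 0.45 and 4.47 ± 0.49). In PDGF, KIT and VEGF signalling, the receptor Kit and its ligand Kitl were both lower (-2.64 ± 0.42 and -3.38 ± 0.43), and Pdgfrb was too (-3.47 ± 0.72).

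DNA replication genes were lower for 12 of 19, with 0 higher and a median of -0.82 (7 lower and 1 higher in the deposited matrix). Slide medians were -1.47, -0.50 and -0.54, and without Diff 1 the count of lower genes went to 7. Cdc45, of the replicative helicase, read -1.11, -0.45 and -1.25 against 1.47, 1.1 and 0.50 (-1.96 ± 0.25). Cdc6, which loads the helicase, differed by -1.60 ± 0.33. Rrm2, a subunit of ribonucleotide reductase, differed by -1.36 ± 0.39, but by -0.87 without Diff 1 (adjusted p = 0.0722). Of 19 mitosis genes 5 were lower and 1 higher, against 23.1% lower over all genes, and Birc5, survivin, was furthest (-1.28 ± 0.21). The 5 lower calls went to 3 without Diff 1, Diff 2, XEN 1 or XEN 3 and to 2 in the deposited matrix.

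Of 18 p53 targets and arrest genes 8 were higher and 1 lower. Pmaip1, the death-promoting protein NOXA, read 2.92, 2.69 and 3.24 in Diff and was at least 219-fold higher. Gdf15, a stress cytokine, read 0.93, 1.09 and 0.87 against -4.71, -2.67 and -2.48 (4.25 ± 0.67). Cdkn2b, the cell cycle inhibitor p15, was lower (-1.83 ± 0.41), but a second probe gave -0.94 and was not called (limma adjusted p = 0.25). The higher count was 5 without Diff 2, Diff 3 or XEN 2, and 3 with median centring.

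The list of endoplasmic reticulum stress and amino acid response had 12 of 20 genes lower and 0 higher (median -0.97, slide medians -0.82, -0.79 and -0.91). Psat1, of serine synthesis, read 2.05, 2.55 and 3.30 against 6.22, 6.07 and 6.29 (-3.56 ± 0.27), and Phgdh, which opens that pathway, read 3.54, 3.64 and 3.94 against 5.64, 5.74 and 5.69 (-1.98 ± 0.26). Pdia4, a disulfide isomerase, differed by -2.05 ± 0.26. Lysosomal genes lay the other way, 11 of 18 higher and 1 lower (median 1.01; 7 higher with median centring). Ctsc, cathepsin C, read 4.37, 4.55 and 4.25 against 0.02, 0.36 and 0.84 (3.98 ± 0.56), and Ctsh, another cathepsin, differed by 1.82 ± 0.54. Of 20 cholesterol synthesis genes 6 were higher (30%) and 2 lower (10%), against 18.4% and 23.1% over all genes. Without XEN 1 or with median centring 3 were higher. Of 20 glycolysis genes 2 were higher (10%) and 4 lower (20%), shares below those over all genes. Among the lower was the muscle enolase Eno3 (0.70, 0.76 and 0.71 against 3.08, 2.91 and 3.39, -2.40 ± 0.21).

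Genes of class I antigen presentation were higher for 9 of 13 with 0 lower (median 1.2; 5 with median centring). Tap1 and Tap2, the peptide transporter pair, were too dim on all XEN arrays, and Diff exceeded XEN at least 13-fold for Tap1 and at least 9.36-fold for Tap2. Psmb9, an immunoproteasome subunit, differed by 3.65 ± 0.41, and H2-M3, a class I molecule, was at least 8.26-fold higher. Of 13 interferon response genes 5 were higher and 1 lower, with Ddx58, the RNA sensor RIG-I, at 3.48 ± 0.38 and Bst2, tetherin, at 3.65 ± 0.40.

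Imprinted genes went both ways, with 10 of 26 higher (38.5%) and 5 lower (19.2%), against 18.4% and 23.1% over all genes. Meg3, a maternally expressed noncoding RNA, read 0.32, 1.77 and 1.88 against -6.31, -4.84 and -5.30 (6.81 ± 0.63, 1 of 3 XEN arrays well above background), and Mirg, of the same cluster, differed by 3.64 ± 0.51. Cdkn1c, an imprinted cell cycle inhibitor, differed by 4.58 ± 0.78. Sgce, a paternally expressed sarcoglycan, read -0.58, -1.23 and -1.91 against 3.14, 4.05 and 4.54 (-5.15 ± 0.59), and Peg10, its neighbour in the genome, differed by -2.43 ± 0.71. Of DNA methylation genes, 5 of 15 were higher (33.3%) and 4 lower (26.7%). Tet2, which oxidises methylcytosine, was higher (1.91 ± 0.32). Uhrf1, which brings the maintenance enzyme to replicated DNA, was lower (-1.22 ± 0.28). The lower count went to 2 without Diff 1, Diff 2 or XEN 3.

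Among genes well above background on all 6 arrays, the largest differences towards Diff were those of Dppa5a, Pigp, AF067061, Rps4l, Cyba, Apoc1, Trh, Hspb1, Cldn7 and Dnmt3l. Hspb1, a small heat shock protein, read 7.94, 8.33 and 8.54 against 1.33, 1.17 and -0.44 (7.58 ± 0.44), and Cyba, a subunit of NADPH oxidase, read 6.02, 4.73 and 4.37 against -3.70, -2.69 and -4.37 (8.62 ± 0.52). Pigp, of GPI anchor synthesis, differed by 10.23 ± 0.30 on the probe used but by -0.25 on a second one, so it may not stand for the gene. The largest towards XEN were those of Thbd, Spon2, Pdpn, Rhox6, Myl9, B4galt4, Myh7, Plat, Mybpc3 and St3gal5. Spon2, a secreted matrix protein, read -2.08, -3.00 and -3.17 against 4.15, 3.67 and 4.26 (-6.77 ± 0.40), and Pdpn, the mucin podoplanin, read 0.35, -0.74 and -0.94 against 6.43, 5.69 and 6.55 (-6.67 ± 0.46). B4galt4 and St3gal5, which build sugar chains, differed by -6.04 ± 0.42 and -5.92 ± 0.45.

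Genes measured on all 3 arrays of one group and none of the other numbered 514 for Diff and 140 for XEN. The highest bounds for Diff, beside those of Zscan4f and Zscan4a given above, were those of Nefl, a neurofilament chain (at least 1250-fold), Mep1b, a meprin protease of absorptive epithelia (958-fold), Rsrp1 (939-fold), Hexa, a lysosomal hexosaminidase (836-fold), Kcnk6, a potassium channel (747-fold), and Lxn, a carboxypeptidase inhibitor (601-fold). All 6 were well above background on every ESC, Mid and Late array. For XEN they included Ccdc80, a matrix protein (at least 113-fold), Cthrc1, a secreted protein linked to collagen (35.6-fold), Fut10 (27.7-fold), Cd276 (24.5-fold), Myocd, Xlr (21.6-fold) and Chst8 (19-fold). A second probe of Fut10 was well above background on 2 of 3 Diff arrays and gave a smaller difference of -2.41. The bound of Fut10 may thus not stand for the gene. Mep1b read 5.27, 5.22 and 4.73 in Diff, with means of 1.45 in ESC, 1.89 in Mid and 2.30 in Late. Hexa and the lysosomal enzyme Gusb are expressed in most cells, and Gusb read 1.95, 2.21 and 2.02 in Diff against -4.60, -3.40 and -4.73 in XEN (6.30 ± 0.30).

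A few genes spread widely within a group. Xlr5b and Xlr5c, of an X-linked family with near-identical copies, read 2.55 and 2.78 on Diff 1, 2.84 and 2.81 on Diff 2, and -4.13 and -3.90 on Diff 3. Xlr3a (0.36, 0.57 and -4.36) and DXBay18 (3.08, 2.51 and -3.68) had the same array low. In XEN, Arhgap18 (-1.64, 9.08 and -0.86), Atg10 (-2.67, 7.72 and -1.55) and Cmklr1 (-2.88, 7.59 and -3.16) were bright on XEN 2 alone. None of these 3 was called.

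Markers of other cell types were summed on each array. Those of mesoderm summed to 10.1 to 13.9 in Diff and 9.28 to 15.5 in XEN, those of neuroectoderm to 2.96 to 5.05 and 5.04 to 9.35, and those of blood to 7.09 to 13.5 and 6.82 to 10.3, as linear signal relative to the 75th percentile. T and Mesp1, defining genes of mesoderm, and Mixl1, one of definitive endoderm, were well above background on 0 of the 6 arrays. Of 9 mesoderm markers tested, 3 were higher in Diff and 0 lower: Hand1, at least 3.92-fold, the defining gene Tbx6 (2.21 ± 0.51) and Mesp2 (1.83 ± 0.38). A second probe of Tbx6 gave 0.21 and was not called (limma adjusted p = 0.461). Hand1 lost its call with normexp, Tbx6 with the replicate number as a block, and Mesp2 in the first scan day alone. Fibroblast markers summed to 0.863 to 2.07 in Diff and 1.41 to 6.48 in XEN, with 4 to 9 and 5 to 6 of 16 well above background. Trophoblast markers summed to 75.3 to 204 in Diff and 55.3 to 61.6 in XEN. In that list Cdx2, a trophectoderm factor also driven by Wnt, differed by 3.16 ± 1.09 (lost without Diff 1, XEN 1 or XEN 2), while Elf5, which defines trophoblast stem cells, was at least 2.92-fold lower in Diff, a call lost with normexp. Their part in the differences above was not tested.

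The passaged cultures made from Diff give levels of the same genes after expansion. Mid minus Diff and Late minus Diff share the Diff arrays with the comparison above, and 29.1% and 25.4% of all genes were called in them. Thbd, with a mean of -2.74 in Diff, stood at 1.81 in Mid and 2.13 in Late (4.56 ± 0.77 and 4.88 ± 0.77 above Diff, adjusted p = 0.00011 and 5.4e-05). Spon2 stood at 2.69 and 2.95, Plat at 2.53 and 3.00 and Rhox6 at 3.73 and 2.80, all called above Diff. Rbp4 reached 5.66 and 6.03. Other genes stayed far under the XEN arrays. Vim was at -0.12 in Mid, called below Diff, and at 0.24 in Late, B4galt4 was at -2.0 and -1.56, and Zeb2 was well above background on none of the Mid and Late arrays. Of the genes high in Diff, Nr0b1 stood at -3.68 and -2.87, Dnmt3l at -0.28 and 0.86 and Otx2 at -3.55 and -2.92, all called below Diff. Dppa5a (7.39, called below Diff, and 7.79) and Cldn7 (6.09 and 6.35) stayed high, and Pou5f1 lay between (2.44 and 3.14, both called below Diff).

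**Figure D5:**
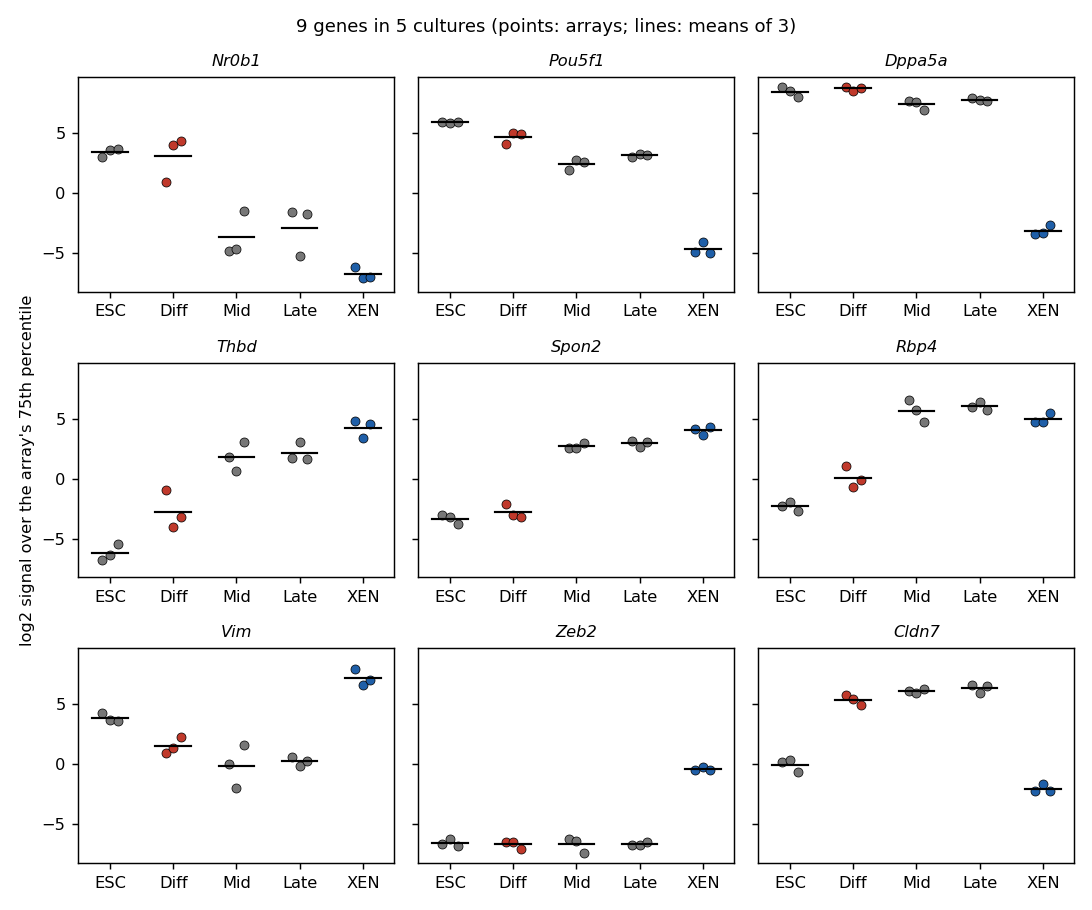
Levels of 9 genes on every array of ESC, Diff, Mid, Late and XEN, as log2 signal relative to the 75th percentile of the array, 1 point per array and 3 arrays per group. Thbd, Spon2 and Rbp4 are low in Diff and high in Mid, Late and XEN, Vim and Zeb2 are high only in XEN among the 4 endoderm cultures, and Dppa5a and Cldn7 are low only in XEN among them.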

How the data were processed

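Total RNA of the 6 Diff and XEN samples was labelled with Cy3, each on its own array. The authors' deposited scanner output gives spot intensity, per the file headers read by Agilent Feature Extraction 11.0.1.1 (9.1 in the submitters' processing notes), already background-corrected. The authors also deposited a series matrix, used as an alternative only; its scale, log base and background step are not stated, and its values were read as log2 because their correlation with log2 scanner values was 0.909 to 0.937 (column medians 5.94 to 5.949). That matrix gave values for 13093 of the 16333 genes tested, so its list counts leave out absent members. Between 132 and 243 irregular spots of 59305 per array were left out and spots of a probe averaged.

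The log2 of the deposited intensity minus the 75th percentile of each array was used (137 to 263 intensity units in Diff and XEN). Of 55681 probes, 27636 received a symbol through their accession (RefSeq names, assembly GRCm38.p6; the headers name mm9), giving 20956 symbols; for 5552 with several probes, the brightest was taken. For 4248 genes a further probe was tested, and 42 had an opposite call on it, none named here. A gene was tested where every array of 1 or more of the 9 groups marked it well above background. One limma model over all 29 arrays gave each difference (limma 3.58.1, R 4.3.3, the package data.table in version 1.17.8; Python 3.11.15, numpy 2.4.6, pandas 2.3.3, matplotlib 3.10.9), and the fit was tested on simulated data. The number of arrays limits the precision.

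Named genes were the 10 largest differences each way among genes well above background on all 6 arrays without overlap, the 8 highest bounds each way, up to 4 called genes each way per list, all endoderm factors and defining markers, and the 6 widest ranges per group; predicted genes were left out, the text uses fewer for some lists, and a few genes are not reported here. The comparison, the members and the gene lists were chosen with earlier results of these data known. Alternatives were other scaling, background correction, filters, probe rules, sets of arrays, blocks for replicate number, slide and scan day, and leaving out each array.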

Additional observations from a re-analysis of the deposited data

How the results depend on the processing

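As reported, limma called 3007 genes higher and 3776 lower. Leaving out 1 array gave 2593 to 2875 higher and 3155 to 3713 lower. Fitting the Diff and XEN arrays alone gave 2351 lower, and the first scan day alone 1628 higher and 1280 lower; both have fewer samples to estimate the spread. Diff and XEN share replicate numbers, and same-numbered arrays also shared a slide. The deviations of same-numbered arrays from their group means correlated at -0.0545, 0.273 and 0.183. Those of arrays with unlike numbers correlated at -0.35 to 0.0857. So few correlations cannot settle whether the numbers pair the samples. With the replicate number as a block on these arrays, 4310 genes were called, 2177 higher and 2133 lower. Under normexp, the deposited matrix, quantile normalization, median centring, the filters, the mean of probes, the first set alone, robust variance and blocks for slide or scan day, 5202 to 7251 genes were called, each direction within 1.5 times of the main count, the cause of the differences not tested. Apoc3 reversed in the deposited matrix (-0.11, adjusted p = 0.613); the cause was not tested. Of 286 named genes called, 172 kept the call under every setting in which they had a value, and 279 had the same direction on all 3 slides. Some named genes had no value in the deposited matrix or under a stricter filter. Frs2, Gsc, Ier3, Mmp2, Trib3 and Uty were among those opposite on at least 1 slide. Dim probes limit the folds: 522 tested genes were above background on neither side.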

Other observations

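The median difference between Diff and XEN was not the same on all chromosomes. Over 10249 genes that were well above background on all 6 arrays and lie on 1 chromosome (RefSeq, assembly GRCm38.p6), it was -0.57 on chromosome 16, -0.56 on 19, -0.53 on 14, -0.49 on 6, -0.47 on 12, -0.43 on 1 and -0.34 on 11, and negative within all 3 slides on each of these. On chromosome 16, 49.3% of 339 genes were lower in Diff and 9.44% higher. The other chromosomes given ran from -0.21 (chromosome 15) to -0.01 (chromosome 8), and on chromosome 7, 17.4% of 909 genes were lower and 19.8% higher. Medians of ESC minus XEN, which use the same XEN arrays, were -0.65 on chromosome 16, -0.71 on 19 and -0.71 on 14, and 0.07 on 7. In Mid and Late minus XEN, chromosome 19 stood at -0.18 and -0.02, while 14 stood at -0.72 and -0.73. These are medians over genes, with no test.

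Some genes of the gut lining and of metal and redox handling also differed between the cultures. Gpx2, a glutathione peroxidase of gut epithelium, read 5.71, 5.46 and 4.26 in Diff and -1.42, -1.09 and -2.23 in XEN (difference 6.72 ± 0.65), and Muc13, a membrane mucin, differed by 2.88 ± 0.45. Slc39a4, which imports zinc, was higher (2.60 ± 0.49), whereas Slc30a1, which exports it, read -1.07, -3.51 and -2.05 against 1.57, 2.30 and 2.98 (-4.50 ± 0.58). Of 11 metallothionein and zinc genes 1 was higher (9.1%) and 2 lower (18.2%). Of 19 glutathione and aldo-keto reductase genes 5 were higher and 5 lower (26.3% each). Of 18 gut hormone and mucosal genes 6 were higher (33.3%) and 1 lower (5.56%), with 3 higher under normexp. Over all genes the shares were 18.4% higher and 23.1% lower.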
